A study of Rattus norvegicus with 4 samples.

Results

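The interleukin 6 family is described here through 10 genes, 4 ligands (Il6, Il11, Lif and Clcf1), 4 receptor subunits (Il6r, Il6st, Lifr and Osmr), the transcription factor Stat3 and its feedback inhibitor Socs3. They were taken by gene name from tables of 33778 genes, and each of the 10 names matched 1 protein-coding gene. RNA was sequenced from H9C2, a line of rat heart origin with myoblast features that the labels describe as cardiac myocytes. The PAGln group was 2 libraries of cells given 100 µM PAGln (phenylacetylglutamine, a conjugate of glutamine with phenylacetate from gut bacteria) for 48 h, and the control group was 2 libraries of cells without it; libraries are called PAGln 1, PAGln 2, control 1 and control 2 after their replicate labels. All cells were grown in DMEM with fetal bovine serum, penicillin and streptomycin, and no genotype or other agent was named. Nothing in the labels ties the libraries of a group to separate cultures, so each p-value reflects the spread among these libraries and that spread may be technical.

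Cytokines of this family signal through complexes that share gp130, the protein of Il6st. Interleukin 6 first binds Il6r and interleukin 11 its own alpha receptor, while leukaemia inhibitory factor joins Lifr to gp130 and oncostatin M joins Osmr to gp130. JAK kinases bound to these receptors phosphorylate STAT3, which enters the nucleus and induces, among others, Socs3, the protein that then blocks the receptor. In cultured heart muscle cells gp130 ligands such as leukaemia inhibitory factor and cardiotrophin 1 are known for promoting hypertrophy and survival, and interleukin 6 is a classical readout of inflammatory signalling.

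The upstream DNA of 2 ligand genes is shown, of which Il6 was expressed at several FPKM in every library and Il11 was close to silent. The 250 bases before the RefSeq start of each gene are printed 5′ to 3′ on the gene's strand, with the motifs found in capitals. They lie in build GRCr8 at chr4:5894576-5894825, minus strand, for Il6 and at chr1:78098372-78098621, plus strand, for Il11.
Il6: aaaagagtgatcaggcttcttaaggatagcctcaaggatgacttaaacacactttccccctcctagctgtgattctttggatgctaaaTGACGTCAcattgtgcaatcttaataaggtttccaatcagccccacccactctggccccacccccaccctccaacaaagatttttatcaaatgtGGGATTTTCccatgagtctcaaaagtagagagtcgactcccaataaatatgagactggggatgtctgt
Il11: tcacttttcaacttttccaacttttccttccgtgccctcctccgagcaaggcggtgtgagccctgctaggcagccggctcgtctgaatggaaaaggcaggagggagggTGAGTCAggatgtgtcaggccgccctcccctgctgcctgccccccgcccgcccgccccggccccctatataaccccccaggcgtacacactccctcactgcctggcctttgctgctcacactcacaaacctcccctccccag

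In the Il6 sequence the capitals mark a CRE match, TGACGTCA, that begins 162 bases before the start, and an NF-kB match, GGGATTTTC, that begins 68 bases before it. In the Il11 sequence they mark an AP-1 match, TGAGTCA, that begins 142 bases before the start. The search covered 4 motifs on both strands: the CRE letters TGACGTCA, found in 1.59% of 33469 windows of the same length, the NF-kB letters GGGNNTTTC (3.70%), the AP-1 letters TGANTCA (6.34%) and the STAT letters TTCNNNGAA (7.67%). The STAT letters were in neither sequence. Windows were at hand for 8 members and not for Lif and Clcf1, and only those of Il6 and Il11 began at the outermost annotated start of the gene, so the other windows are not printed. Among the windows not printed only that of Osmr, a gene expressed in every library, held a match. It was an AP-1 match that begins 33 bases before the start used for that window. A match is a description of these letters and not evidence of a bound factor.

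The cells carried smooth muscle, striated muscle and fibroblast markers. The filter for testing was a mean of 1 FPKM (reads per kilobase of gene, scaled to library depth). All 4 smooth muscle markers, 6 of 8 striated muscle markers and 4 of 6 fibroblast markers reached it. Means of the smooth muscle markers ran from 3843 FPKM for Acta2 down to 2.58 FPKM for Myh11. Cardiac genes of the striated muscle list differed widely, with Tnnt2 at a mean of 157 FPKM and Actc1 and Myh6 at 0.0113 and 0.160 FPKM. The fibroblast markers summed to 3724 and 4258 FPKM in PAGln and 3832 and 3932 FPKM in control libraries, led by the collagen gene Col1a1 at a mean of 2977 FPKM over all libraries, while Dcn was at 0 in all of them. Of the 3 endothelial genes matched, 0 reached the filter. Of markers of cell types in which Il6r is usually high, 0 of 4 hepatocyte and 1 of 5 leukocyte genes reached the filter, with summed levels of 0.561 and 0.988 FPKM in PAGln and 0.709 and 0.671 FPKM in control libraries for hepatocyte genes, and 2.08 and 1.22 FPKM in PAGln and 2.11 and 1.94 FPKM in control libraries for leukocyte genes. Albumin (Alb) and Adgre1 were at 0 in all 4 libraries. The tables correspond to 13507110 and 13585802 reads in the PAGln libraries and 14934592 and 14984712 in the control libraries, taking the smallest step in each as 1 read. Libraries differed in the balance of short and long genes across the groups. The median of the 4113 shortest tested genes (up to 1593 bases) lay 0.042 above its 4-library mean in PAGln 1, at -0.059 in PAGln 2, at -0.049 in control 1 and at 0.075 in control 2 on the log2 scale, and that of the 4109 longest (from 2937 bases) lay at -0.030, 0.054, 0.044 and -0.068 in the same libraries.

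PAGln-treated cells were set against control cells to find transcripts whose level differs after the metabolite. None of the 9 family members that could be tested passed the threshold, and Il11 lay under the filter. With limma on log2(FPKM + 1), 0 of 12334 genes (0%) had an adjusted p under 0.05, and 0 of the 9 members had an unadjusted p under 0.05, which 262 genes had (2.12%). The voom variant of limma on the recovered reads called 0 genes and 0 members, with 134 genes (1.09%) at an unadjusted p under 0.05. Of the tested members 7 had a positive and 2 a negative log2 fold change. Their median was 0.043, beside 0.0021 for all tested genes, and the largest was 0.30, for Osmr. The PAGln and control libraries did not overlap for 1 member, Il6, of the 9 tested, whereas they did not overlap for 23.1% of all tested genes. All 9 members had a limma adjusted p of 1.00 after rounding. In bulk libraries such as these, fewer cells of a type and less RNA per cell cannot be told apart.

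**Figure D1:**
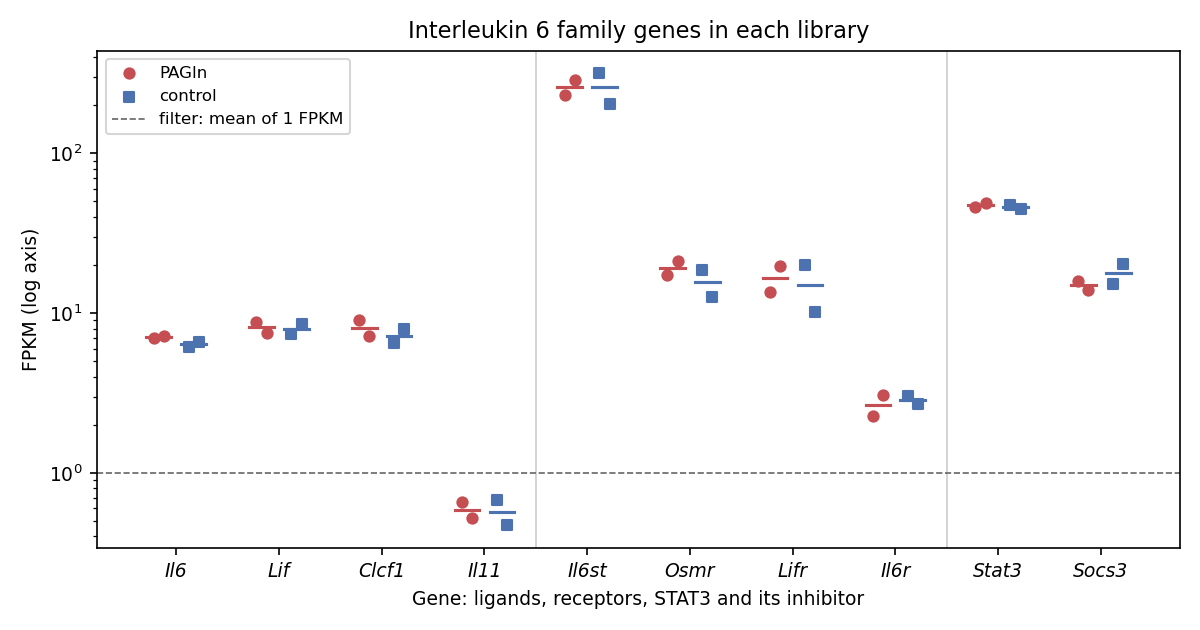
FPKM of each family member on a log axis, with 1 point per library, PAGln (circles) left of control (squares) and short lines at the group means. Il6st lies above 202 FPKM in every library, Il11 lies under the dashed filter line of 1 FPKM, and only for Il6 do both PAGln points lie above both control points.

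Levels were compared between genes in FPKM, which is per length. Il6st was the highest member, averaging 259.6 FPKM across all libraries, and ranked 247th of the 12334 tested genes. Stat3 followed at 46.8 FPKM, and the ranges of these genes over the libraries overlapped neither each other nor that of the next gene. Osmr (17.4 FPKM), Socs3 (16.4 FPKM) and Lifr (15.8 FPKM) came next and each overlapped its neighbour in this order. So did the ligands Lif (8.06 FPKM), Clcf1 (7.67 FPKM) and Il6 (6.73 FPKM). Il6r, at 2.76 FPKM, lay under all of these in every library, and Il11, at 0.580 FPKM, under Il6r. Il6st made up 65.8% and 69.0% of the summed FPKM of the 10 members in the PAGln libraries, against 71.7% and 63.9% in the control libraries.

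Il6 encodes interleukin 6 and lies on chromosome 4 from 3043231 to 3047807 in the deposited coordinates, whose build is not given in the sources used here. It had 6.99 and 7.15 FPKM in the PAGln libraries, against 6.17 and 6.60 FPKM in the control libraries. Both PAGln libraries were above both control libraries, by a small margin. The means were 7.07 ± 0.111 FPKM in PAGln and 6.38 ± 0.303 FPKM in control libraries (SD, n = 2 each). Its log2 fold change was 0.13 (95% CI -0.20 to 0.46, SE 0.13, limma adjusted p = 1.00). These levels rested on 99 and 102 reads in the PAGln libraries and 96 and 104 reads in the control libraries, so the reads themselves overlapped, and the PAGln libraries had the lower read totals. The exact Poisson 95% interval of PAGln 1 ran from 5.68 to 8.51 FPKM and that of control 1 from 5.00 to 7.53 FPKM, and each held the levels of all 4 libraries. These intervals cover counting error only.

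Lif, on chromosome 14 from 84482674 to 84500642, encodes leukaemia inhibitory factor. It had 8.82 and 7.50 FPKM in the PAGln libraries, against 7.36 and 8.58 FPKM in the control libraries. PAGln 1 and control 2 were the higher library of their groups and the groups overlapped. On the log2 scale the fold change was 0.030 (95% CI -0.35 to 0.41, SE 0.15), and it was -0.074 without PAGln 1 and -0.068 without control 1. Clcf1, on chromosome 1 from 219468675 to 219472654, encodes cardiotrophin-like cytokine factor 1, which acts through the ciliary neurotrophic factor receptor. It had 9.02 and 7.20 FPKM in the PAGln libraries, against 6.46 and 7.99 FPKM in the control libraries. The order of the libraries was that of Lif, and the groups again overlapped, with a log2 fold change of 0.15 (95% CI -0.30 to 0.59, SE 0.17).

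Il11, on chromosome 1 from 72635267 to 72643255, encodes interleukin 11. It had 15 and 12 reads in the PAGln libraries, against 17 and 12 reads in the control libraries, which is 0.654 and 0.520 FPKM in PAGln and 0.675 and 0.470 FPKM in control libraries. The groups overlapped. The exact Poisson 95% interval of the 15 reads in PAGln 1 ran from 8.40 to 24.7 reads, so a difference of the size seen between these libraries was not detectable at this depth. Il6 stood 10.7 and 13.8 times above Il11 in the PAGln libraries and 9.14 and 14.0 times above it in the control libraries. The 4 ligands together summed to 25.5 and 22.4 FPKM in the PAGln libraries and to 20.7 and 23.6 FPKM in the control libraries.

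Il6st, on chromosome 2 from 44289393 to 44314944, had 232 and 287 FPKM in the PAGln libraries, against 317 and 202 FPKM in the control libraries. The highest and the lowest library were both controls. The means were 259.6 ± 38.8 FPKM in PAGln and 259.5 ± 80.8 FPKM in control libraries (SD, n = 2 each). With 9501 to 14677 reads per library counting error was small beside this spread. PAGln minus control came to a log2 fold change of 0.028 (95% CI -0.59 to 0.64, SE 0.24, limma adjusted p = 1.00). It was -0.12 without PAGln 2 and -0.29 without control 2, and 0.18 without PAGln 1 and 0.35 without control 1.

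Osmr, on chromosome 2 from 56110777 to 56151531, is the signalling subunit for oncostatin M and had the largest fold change of the family. It had 17.3 and 21.0 FPKM in the PAGln libraries, against 18.7 and 12.6 FPKM in the control libraries. Control 2 was far under the other libraries, and control 1 lay between the PAGln libraries. The limma estimate was a log2 fold change of 0.30 (95% CI -0.25 to 0.84, SE 0.21, limma adjusted p = 1.00). It was 0.030 without control 2 and 0.57 without control 1. Lifr, the receptor subunit for leukaemia inhibitory factor, lies on the same chromosome from 56426367 to 56489415. It had 13.5 and 19.7 FPKM in the PAGln libraries, against 19.9 and 10.1 FPKM in the control libraries. Here too control 2 was lowest, and control 1 was highest. Its log2 fold change was 0.18 (95% CI -0.68 to 1.05, SE 0.34), and it was -0.071 without PAGln 2 and -0.27 without control 2.

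Il6r, on chromosome 2 from 189205701 to 189254628, binds interleukin 6 itself and decides which cells answer to it without a soluble receptor. It had 2.26 and 3.06 FPKM in the PAGln libraries, against 3.01 and 2.71 FPKM in the control libraries. The PAGln libraries were the lowest and the highest of the 4. On the log2 scale the fold change was -0.084 (95% CI -0.59 to 0.42, SE 0.20), and it was 0.073 without PAGln 1. The signal transducer exceeded the ligand-binding subunit widely in every library. The ratio of Il6st to Il6r was 103 and 93.9 in the PAGln libraries and 105 and 74.7 in the control libraries. The ratio of Il6st to Osmr was 13.4 and 13.6 in the PAGln libraries and 17.0 and 16.1 in the control libraries, without overlap. That of Il6st to Lifr was 17.2 and 14.6 in the PAGln libraries and 15.9 and 20.0 in the control libraries, with overlap. The other ratios taken between members, Il6st to Il6r, Osmr to Lifr, Socs3 to Stat3 and Il6 to Il11, also overlapped. Among single tested genes, 23.1% did not overlap between the groups. No such share was computed for ratios, and no test of any ratio was made.

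**Figure D2:**
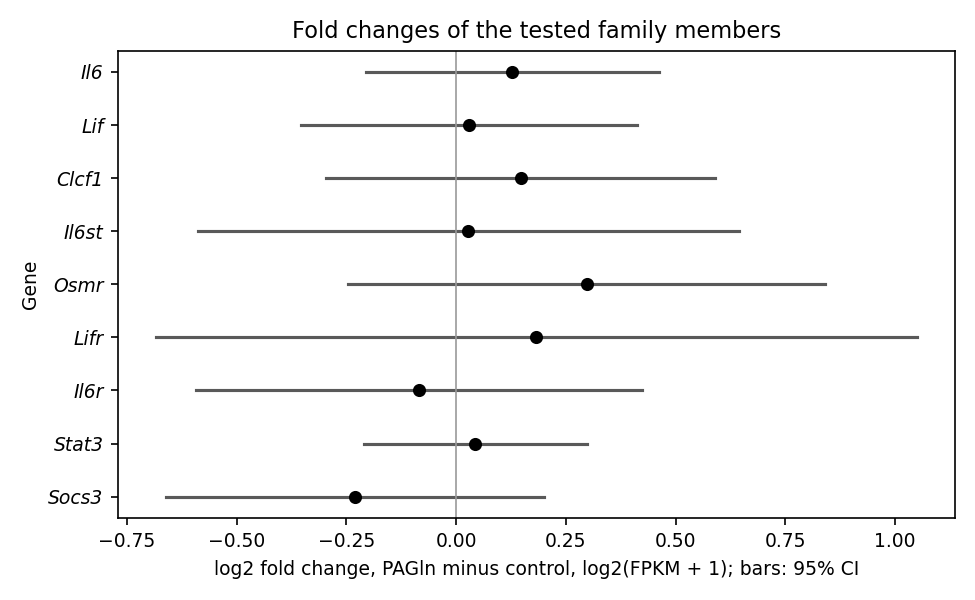
Log2 fold changes of the 9 tested members (points) with limma's 95% confidence intervals (bars), as PAGln minus control in log2(FPKM + 1). Every interval includes 0, and the widest is that of Lifr, from -0.68 to 1.05.

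For the receptor subunits the higher libraries were 1 of each treatment group. Relative to its mean over the 4 libraries on the log2 scale, Il6st lay at -0.14 in PAGln 1, 0.17 in PAGln 2, 0.31 in control 1 and -0.34 in control 2. Lifr lay at -0.16, 0.35, 0.36 and -0.55 in the same libraries, and Osmr at 0.015, 0.28, 0.12 and -0.42. PAGln 2 and control 1 were the higher libraries for all 3 genes. Il6r, at -0.20, 0.12, 0.098 and -0.014 in the same libraries, also had these as its higher ones, with PAGln 1 and not control 2 as its lowest. Lif, Clcf1 and Socs3 had PAGln 2 and control 1 as their lower libraries. The gene models of Il6st (3112 bases), Lifr (5388 bases) and Il6r (4597 bases) belong to the longest genes and those of Il6 (1045 bases) and Socs3 (863 bases) to the shortest, while Osmr (2894 bases), Lif (2226 bases) and Clcf1 (2257 bases) lie between. The median of the longest genes, given above, had the same sign as Il6st, Lifr and Il6r in each library. It was smaller in size than theirs except beside Il6r in control 2. Stat3 (4428 bases), also among the longest, had the same sign, at -0.015, 0.058, 0.017 and -0.060, but exceeded that median in size only in PAGln 2. The median of the genes of middle length lay at 0.014, -0.020, -0.013 and 0.025. Lif and Clcf1 had its sign in each library, and Osmr only in PAGln 1. Socs3 had the sign of the shortest genes' median except in PAGln 1, where it lay at -0.033. Il6 had that sign in PAGln 1 and control 1 and the opposite sign in the other libraries, at 0.050 in PAGln 1, 0.078 in PAGln 2, -0.11 in control 1 and -0.022 in control 2. The part of gene length in these values was not tested.

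**Figure D3:**
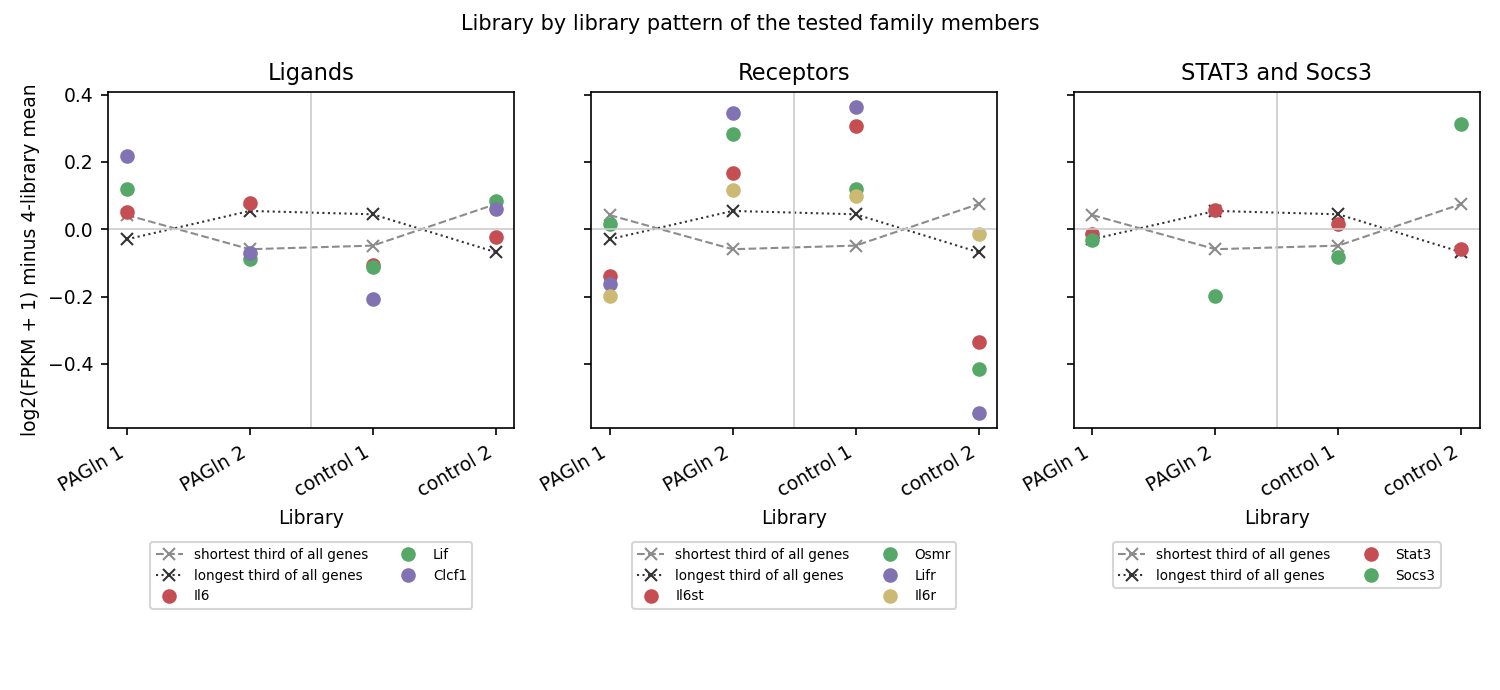
Level of each tested member in each library as log2(FPKM + 1) minus its mean over the 4 libraries (points), with the medians of the shortest and longest tested genes as grey lines. Il6st, Lifr and Osmr are high in PAGln 2 and control 1 and low in control 2, where Lifr reaches -0.55, and Socs3 is highest in control 2 at 0.31.

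Stat3, on chromosome 10 from 88790408 to 88842233, varied least among the tested members on the log2 scale. It had 46.3 and 48.7 FPKM in the PAGln libraries, against 47.3 and 44.8 FPKM in the control libraries. The groups overlapped within a narrow range. With a log2 fold change of 0.043 and an SE of 0.10, its 95% CI of -0.21 to 0.30 was the narrowest of the family. Socs3, on chromosome 10 from 106975178 to 106976040, had 15.8 and 14.0 FPKM in the PAGln libraries, against 15.2 and 20.4 FPKM in the control libraries. Control 2 stood above the other libraries, and control 1 lay between the PAGln libraries. PAGln minus control came to a log2 fold change of -0.23 (95% CI -0.66 to 0.20, SE 0.17, limma adjusted p = 1.00), and it was -0.033 without control 2 and -0.43 without control 1. Its gene model of 863 bases spans the whole deposited locus, so these levels rest on 185 and 165 reads in the PAGln libraries and 196 and 265 in the control libraries. The ratio of Socs3 to Stat3 was 0.342 and 0.287 in the PAGln libraries and 0.322 and 0.454 in the control libraries.

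Other genes of the pathway were read from the same fit in 8 lists. Of 79 distinct tested genes beside the members, 39 had a positive and 40 a negative log2 fold change, 0 passed the threshold, 0 had an unadjusted p under 0.05, and the median was -0.0016. The groups did not overlap for 14 of them (17.7%), beside 23.1% of all tested genes.

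Among the other ligands of the family, cardiotrophin 1 (Ctf1) was the most abundant, with 18.5 and 13.9 FPKM in PAGln libraries and 17.4 and 20.3 FPKM in control libraries. The ciliary neurotrophic factor gene Cntf had 3.57 and 2.28 FPKM in PAGln libraries and 2.15 and 2.06 FPKM in control libraries, without overlap (log2 fold change 0.32, SE 0.23). Ligand and receptor genes were not always expressed together. Osm, the gene of oncostatin M, had 0 reads in all 4 libraries although Osmr was expressed, and 3 reads, the limit a count of 0 allows, would be at most 0.0801 FPKM. Cntfr, the alpha receptor for Clcf1 and Cntf, also had 0 reads in every library (limit 0.119 FPKM). Il11ra1, the alpha receptor of interleukin 11, had 7.15 and 5.77 FPKM in PAGln libraries and 6.98 and 7.93 FPKM in control libraries. Genes under the filter included Ebi3, Ctf2 and Il27ra, while Il27 and Il31ra were at 0 throughout.

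Of the kinases that start the signal, Jak1 was the most abundant, with 48.1 and 57.0 FPKM in PAGln libraries and 60.5 and 47.8 FPKM in control libraries. All 9 matched JAK and other STAT genes were tested, 5 with positive and 4 with negative fold changes (median 0.034). Their log2 fold changes ran only from -0.044 for Stat6 to 0.088 for Stat5b. Stat5b, which mainly serves growth hormone and interleukin 2 type receptors, did not overlap between groups, with 15.1 and 15.6 FPKM in PAGln libraries and 14.4 in both control libraries. Jak3 had a log2 fold change of 0.082 (SE 0.12).

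Of 16 negative regulators, 12 were tested, 5 with positive and 7 with negative fold changes (median -0.029). The groups did not overlap for 5 of these 12, beside 23.1% of all tested genes. The 5 were Socs1, Ptpn1 and Socs7, lower in PAGln, and Pias3 and Socs4, higher in PAGln. Socs7, Pias3 and Socs4 were chosen after their values were seen, and their log2 fold changes were -0.12, 0.14 and 0.18. Socs1, a relative of Socs3 that blocks JAK kinases directly, had 0.909 and 1.29 FPKM in PAGln libraries and 1.89 and 1.69 FPKM in control libraries. Both PAGln values were lower, on 14 and 20 reads in PAGln and 32 and 29 reads in control libraries, and the log2 fold change, -0.42 with an SE of 0.23, did not pass (limma adjusted p = 1.00). Ptpn1, a phosphatase that acts on JAK2 and TYK2, had 19.3 and 18.5 FPKM in PAGln libraries and 21.0 and 23.8 FPKM in control libraries, which gave -0.23 in log2 with an SE of 0.12 (limma adjusted p = 1.00). Pias2, a SUMO ligase, had a log2 fold change of 0.28 (SE 0.18) with overlapping groups. Ptpn11, the phosphatase SHP2 that also binds gp130, was the most abundant at 52.4 ± 0.865 FPKM in PAGln and 52.3 ± 1.23 FPKM in control libraries (SD, n = 2 each).

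Adaptors and kinases that link gp130 to RAS and PI3K had 11 positive and 4 negative fold changes among 15 tested genes (median 0.083). Mapk3, the kinase ERK1, was the most abundant at 192 and 180 FPKM in PAGln libraries and 179 and 184 FPKM in control libraries. Shc1, an adaptor, had 65.9 and 70.2 FPKM in PAGln libraries and 75.9 and 73.2 FPKM in control libraries, without overlap (log2 fold change -0.13, SE 0.099). The log2 fold change of Pik3r1, a PI3K subunit, was 0.20 (SE 0.15) and that of Sos2, a RAS activator, was 0.14 (SE 0.14), both with overlapping groups. Of the genes that govern receptor shedding and traffic 5 of 6 were tested (3 positive, 2 negative, median 0.032). The sheddases Adam10 and Adam17, which release soluble interleukin 6 receptor, differed by log2 fold changes of 0.040 with SE 0.15 for the first and 0.032 with SE 0.11 for the second. Those of Rhbdf1, a cofactor of ADAM17, and the sorting nexin Snx27 were -0.077 (SE 0.12) and 0.10 (SE 0.12).

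None of the known STAT3 targets tested passed the threshold. Besides the 4 family members in this list, 20 were tested, 6 with positive and 14 with negative fold changes (median -0.063). For all tested genes the median was 0.0021 and the 25th and 75th percentiles were -0.092 and 0.088. No test of the list was made. The groups did not overlap for 1 of these 20, beside 23.1% of all tested genes. It was Nnmt, named after its values were seen (log2 fold change -0.056, SE 0.11). The cyclin Ccnd1 was the most abundant, with 358 and 323 FPKM in PAGln libraries and 353 and 345 FPKM in control libraries. Tnfrsf12a, a receptor of the tumour necrosis factor family, had 130 and 80.9 FPKM in PAGln libraries and 102 and 152 FPKM in control libraries. PAGln 1 and control 2 were the higher libraries of their groups, as for Lif. Of the acute phase genes in this list, Fgg, a fibrinogen chain gene, averaged 3.31 ± 0.186 FPKM in PAGln and 3.59 ± 0.582 FPKM in control libraries (SD, n = 2 each). Hp, the haptoglobin gene, had 2.69 and 2.36 FPKM in PAGln libraries and 1.76 and 2.75 FPKM in control libraries. Both overlapped between groups and were named after their values were seen. A2m, Fgb, Orm1 and Lcn2 had 0 reads in all 4 libraries, and Fga, Lbp and Serpina3n lay under the filter.

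All 17 regulators of Il6 transcription and messenger RNA decay were tested, 8 with positive and 9 with negative fold changes (median -0.050). The groups did not overlap for 4 of them, beside 23.1% of all tested genes. These 4 were Jun and Elavl1 and, named after their values were seen, Arid5a and Fosl1. Atf4, a transcription factor of the stress response that binds CRE-like sites, was the most abundant at 167 and 152 FPKM in PAGln libraries and 141 and 161 FPKM in control libraries. Jun, a subunit of AP-1, had 38.4 and 37.2 FPKM in PAGln libraries and 42.1 and 45.6 FPKM in control libraries. Both PAGln values were lower, with a log2 fold change of -0.21 and an SE of 0.10 (limma adjusted p = 1.00). Elavl1, the protein HuR that stabilizes AU-rich messenger RNAs, had 28.4 and 29.3 FPKM in PAGln libraries and 26.7 and 26.9 FPKM in control libraries (log2 fold change 0.10, SE 0.099). Rc3h2, a Roquin protein that promotes decay of Il6 messenger RNA, had a log2 fold change of 0.22 (SE 0.23) with overlapping groups.

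**Figure D4:**
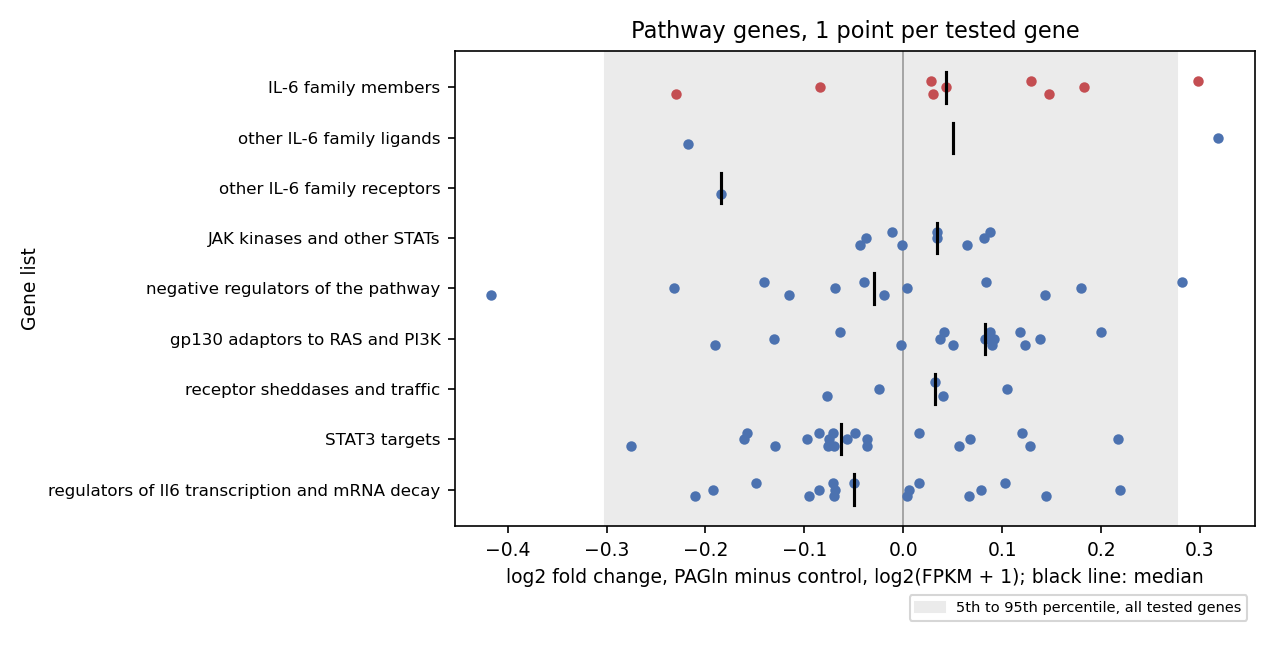
Log2 fold changes, as PAGln minus control in log2(FPKM + 1), of the tested family members (top row) and of the tested genes of 8 pathway lists without the members, 1 point per gene, with list medians as black lines. The grey band holds the 5th to 95th percentile of all tested genes, from -0.30 to 0.28, and Osmr, Cntf, Pias2 and Socs1 lie outside it.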

How the data were processed

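RNA was sequenced in 4 libraries, grouped by the treatment label, with replicate numbers from the titles. The authors deposited FPKM per gene, 1 table per library. Bowtie 0.12.2 and hg38, a human build, stand in the submitters' processing notes, while 32883 identifiers in the tables are rat Ensembl genes. Counting tool, strand setting and coordinate build were not given in the sources used here. FPKM times gene length was a whole multiple of 1 step per library for 100% of non-zero values (within 0.01), which gave the recovered reads. The million-read divisors were 99.7% to 101% of the summed reads.

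Genes averaging at least 1 FPKM were tested with limma 3.58.1 (R 4.3.3, variance trend, two-sided) on log2(FPKM + 1), with Benjamini-Hochberg adjustment over all 12334 and calls at 0.05. Fold changes, PAGln minus control, understate those of low genes. The test was checked on simulated data with independent noise for each gene, drawn from limma's fitted variances. That check does not cover deviations shared between genes. Replicates differed beyond counting noise (15.2 chi-square units per gene for PAGln and 16.8 for control libraries), so each counted as 1. The members and lists were chosen with earlier results of these data known. Named from each list were the most abundant tested gene and the 3 with the smallest p, or all where fewer than 4 were tested; genes at 0 or under the filter were named beside them, except 1 that is not reported here. Of 143 list entries 5 matched no gene name and are not analysed here. Upstream sequences came from RefSeq, build GRCr8. Alternatives were a pseudocount of 0.1, filters at 5 FPKM and at any value above 0, voom, rescaling to TPM, quantile normalization, a replicate block, and leaving out each library.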

Additional observations from a re-analysis of the deposited data

How the results depend on the processing

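No family member was called by limma under any of the alternatives run, where their adjusted p ranged from 0.963 to 1.00. All tested members kept their direction under the pseudocount of 0.1, voom, TPM and quantile normalization. The 2 other filters and the replicate block leave each fold change as it was and alter only its SE, so they cannot test direction. Il6r lay under the filter of 5 FPKM. Leaving out 1 library at a time gave log2 fold changes of 0.087 to 0.17 for Il6, -0.079 to 0.11 for Il11 (not tested), -0.074 to 0.13 for Lif, 0.0028 to 0.29 for Clcf1, -0.24 to 0.073 for Il6r, -0.29 to 0.35 for Il6st, -0.27 to 0.64 for Lifr, 0.030 to 0.57 for Osmr, 0.0050 to 0.082 for Stat3 and -0.43 to -0.033 for Socs3. The lone library of a group was then assumed to vary like the other group. Over all genes, limma called 5 without PAGln 1, 13 without PAGln 2, 2 without control 1 and 1 without control 2, against 0 with all libraries, and the cause was not tested. The replicate block called 7 genes and 0 members, but the deviations of same-numbered libraries ran against each other (r = -0.284 across 12334 genes, which are not independent), so the numbers were not taken as pairs. A crossed pairing, chosen after seeing the data, called 0 genes and 0 members. In it limma gave 899 genes and 1 member an unadjusted p under 0.05, against 262 genes and 0 members in the main fit. In the median, a 95% CI reached 0.40 either side of the estimate on the log2 scale, which limits the size of difference that could be called.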
